A study of Mus musculus with 3 samples.

Results

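Several genes that restrain NF-κB signaling had higher mRNA levels in mouse liver after ischemia and reperfusion than after ischemia alone. None of them differed 2-fold between ischemia alone and a sham operation. Only 1.85% of all genes did so, and the absence of such a difference is near that share. The genes described are 10 feedback inhibitors of NF-κB, taken by gene symbol from the 23361 genes in the deposited tables: Tnfaip3, Nfkbia, Nfkbib, Nfkbie, Nfkbiz, Bcl3, Tnip1, Zc3h12a, Zfp36 and Birc3. All 10 symbols were found once in each table. From WI to IR, 6 of them were at least 2-fold higher, led by Bcl3 and Tnfaip3, where 5.78% of all genes were. When every library was rescaled to a common sum 3 of them were, against 3.57% of all genes. As deposited, Birc3 and Nfkbie differed between WI and IR by 0.20 and 0.02 on the log2 scale.

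The livers came from C57BL/6J mice of 8 to 10 weeks, labelled male, in groups of 6 that had been fasted for 12 h. Sham mice had a laparotomy without clamping and were sampled 90 min later. For warm ischemia (WI) the portal vessels and bile duct of 70% of the liver were clamped for 90 min. Livers of the ischemia-reperfusion (IR) mice were clamped in the same way for 90 min and sampled 120 min after release of the clamp. One RNA library stands for each group, and the sources used here do not say how many of the mice contributed RNA to it. No sham group was sampled at the time of the IR group, so in comparisons with IR the reperfusion and the added time after surgery cannot be told apart.

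NF-κB is a family of dimeric transcription factors held in the cytoplasm by IκB proteins. Signals from TNF, IL-1 or Toll-like receptors activate the IκB kinase, IκB is degraded, and the freed dimers switch on inflammatory genes and, among them, genes whose products end the response. These inhibitors act at several levels. Tnfaip3 (A20) and its partner Tnip1 (ABIN-1) act on ubiquitin chains upstream of the kinase, the IκB proteins bind the dimers, the nuclear IκB proteins Bcl3 and Nfkbiz modify transcription at target genes, and Zfp36 (tristetraprolin) and Zc3h12a (Regnase-1) remove inflammatory mRNAs. In liver this circuit operates in hepatocytes as well as in Kupffer cells and recruited leukocytes.

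Each level is an FPKM value, a fragment number scaled to transcript length and to the mapped fragments of the library, so levels of different genes can be set side by side. The authors' program Cuffdiff supplied a lower and an upper 95% bound with each FPKM. These bounds describe its model of the counts and hold no variation between mice, and with 1 library a group no test between groups was possible. Each difference is one of log2(FPKM + 1), a scale that understates the change of low genes, and a gene counts as past 2-fold when FPKM + 1 differed at least 2-fold. The background is formed by the 10792 genes that reached an FPKM of 1 in any library. Of the 10 inhibitors 9 passed this filter, and Nfkbie did not. Each of the 9 reached an FPKM of 1 in the sham library too, so none entered through the IR library alone.

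Some properties of the libraries bear on every comparison. The liver markers Apoa1, Ttr, Cps1 and Serpina1a had FPKM values between 677 and 8799 in all libraries, and Alb was listed at 0 with the status HIDATA, which marks a locus with too many fragments to process. The sham and WI libraries went against their label of male: Xist, the RNA that coats the silenced X chromosome of female cells, had an FPKM of 18.9 and 20.1 there and 1.29 in the IR library. The Y-linked genes Ddx3y, Kdm5d, Uty and Eif2s3y were at 0 in the sham library, at most at 0.00849 in the WI library and between 0.669 and 13.2 in the IR library. A difference in sex therefore cannot be told apart from reperfusion in comparisons with IR, while WI and sham do not differ in these markers. Summed FPKM was 475754 in the sham, 487912 in the WI and 712423 in the IR library. The status HIDATA was given to 1 gene in sham, 1 in WI and 7 in IR. These sums may therefore leave out different genes, and the effect of that on the scaling was not tested. The sum of 20 major urinary protein (Mup) genes went from 10271 in WI to 89648 in IR. Counts are therefore also given after rescaling to a common sum (TPM), which multiplies the IR library by 0.668 relative to sham.

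The promoters are shown first, since NF-κB is known to drive several of its own inhibitors through κB sites. RefSeq sequence of the GRCm38.p6 build, which has the coordinates of the mm10 genome used by the authors, was at hand for 9 of the 10 genes and for 10 start sites, 2 of them of Tnfaip3. Only the 250 bases before each RefSeq start were searched, on both strands, for the 10-letter κB consensus (3 G, a purine, any base, A or T, 2 pyrimidines and 2 C). The matches are in capitals below, in 5′ to 3′ order on the gene's own strand. Tnfaip3, Nfkbia, Tnip1 and Nfkbie are printed because they hold a match, and Bcl3 because it changed most and holds none.
Tnfaip3: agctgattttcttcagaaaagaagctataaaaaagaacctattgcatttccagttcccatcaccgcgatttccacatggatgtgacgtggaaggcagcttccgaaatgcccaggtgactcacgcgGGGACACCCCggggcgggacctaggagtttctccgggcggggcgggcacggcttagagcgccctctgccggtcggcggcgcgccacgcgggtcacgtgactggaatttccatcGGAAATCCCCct
Nfkbia: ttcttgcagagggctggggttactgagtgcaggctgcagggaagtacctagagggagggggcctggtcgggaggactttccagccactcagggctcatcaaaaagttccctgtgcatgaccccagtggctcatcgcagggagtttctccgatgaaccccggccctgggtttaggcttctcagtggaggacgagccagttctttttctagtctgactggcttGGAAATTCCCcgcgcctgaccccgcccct
Tnip1: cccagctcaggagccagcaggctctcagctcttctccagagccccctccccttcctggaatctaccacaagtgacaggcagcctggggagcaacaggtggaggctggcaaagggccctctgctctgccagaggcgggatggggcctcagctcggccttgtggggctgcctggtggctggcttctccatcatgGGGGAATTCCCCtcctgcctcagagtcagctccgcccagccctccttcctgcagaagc
Nfkbie: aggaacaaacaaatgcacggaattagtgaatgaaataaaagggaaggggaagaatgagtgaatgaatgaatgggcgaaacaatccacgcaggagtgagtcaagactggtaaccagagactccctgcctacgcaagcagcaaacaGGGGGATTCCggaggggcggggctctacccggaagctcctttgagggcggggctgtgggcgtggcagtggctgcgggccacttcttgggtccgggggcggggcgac
Bcl3: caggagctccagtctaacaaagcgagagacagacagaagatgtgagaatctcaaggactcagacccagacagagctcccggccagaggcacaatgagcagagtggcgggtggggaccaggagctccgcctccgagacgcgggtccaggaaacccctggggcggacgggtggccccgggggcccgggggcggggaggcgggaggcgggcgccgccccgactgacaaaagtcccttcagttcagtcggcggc

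The sequences lie at chr10:19015411-19015660 (minus strand) for Tnfaip3, chr12:55492648-55492897 (minus) for Nfkbia, chr11:54962941-54963190 (minus) for Tnip1, chr17:45555450-45555699 (plus) for Nfkbie and chr7:19822756-19823005 (minus) for Bcl3. Tnfaip3 had one match from -125 to -116 and another, GGAAATCCCC, from -12 to -3 relative to the start. Nfkbia had GGAAATTCCC from -29 to -20. Tnip1 had 3 matches that overlap one another between -58 and -47, so they count as a single stretch. Nfkbie had GGGGGATTCC from -106 to -97. The Tnfaip3 match from -12 to -3, that of Nfkbia and the Tnip1 match from -56 to -47 fit the consensus on the opposite strand. A match was thus present in 4 of the 10 promoters of these genes, and in 3.90% of all 32851 promoters of the same length. No match lay before the starts of Bcl3, Nfkbib, Zc3h12a, Zfp36 and Birc3 or before the downstream start of Tnfaip3, which says only that these letters are not in this window. The AP-1 motif TGANTCA was found in Tnfaip3 (-136 to -130) and Nfkbie (-156 to -150) and in 6.75% of all promoters. GGGCGG was found in 7 of the 10 promoters, against 32.7% of all, and TATAAA only in that of Tnfaip3, from -225 to -220, against 12.4% of all. The 7 promoters with GGGCGG, which include the 4 with a κB match, held 57.6% to 67.6% G and C. The median of all promoters was 52.4%, and the part of base composition in these motif counts was not tested. Genes with a κB match included the inhibitor with the second largest change (Tnfaip3) as well as the one with the smallest (Nfkbie), and a match is a description of the sequence, not evidence of binding.

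**Figure D1:**
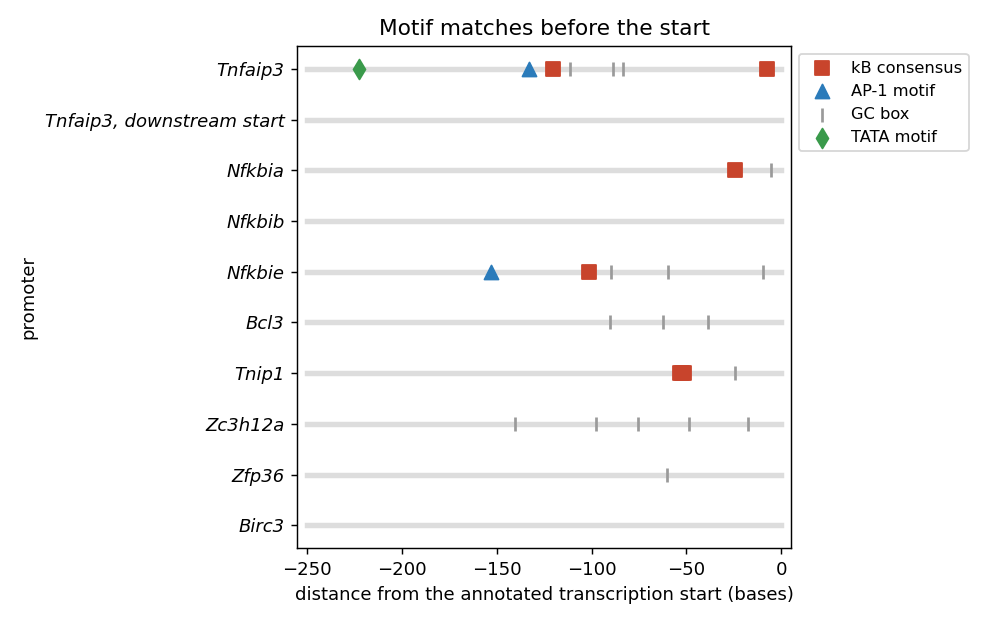
Positions of motif matches in the 250 bases before 10 transcription starts, plotted as distance in bases from the start. Squares mark the κB consensus, which was present in 4 promoters, triangles the AP-1 motif, diamonds the TATA motif and grey ticks the GGGCGG motif.

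In the sham library the inhibitors covered a wide range of levels. Zfp36 was the highest with an FPKM of 83.9, followed by Nfkbia with 32.5, Nfkbib with 8.77, Birc3 with 6.28, Bcl3 with 4.81, Nfkbiz with 3.60, Tnip1 with 2.19, Tnfaip3 with 1.45, Zc3h12a with 1.18 and Nfkbie with 0.696. The bounds of every neighbour in this order overlapped, so only genes further apart in it can be ranked. In the WI library the order was the same except that Bcl3 moved above Birc3. In the IR library Bcl3 stood second. The bounds of Zfp36 (73.6 to 235) lay above those of Bcl3 (25.5 to 71.2) there, as in the sham and WI libraries. The bounds of Zfp36 still overlapped those of Nfkbia (8.87 to 86.7), so Zfp36 was not set apart from all the others. The 10 genes together had a summed FPKM of 145 in sham, 151 in WI and 304 in IR, of which Zfp36 made up 57.7%, 61.9% and 50.7%.

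**Figure D2:**
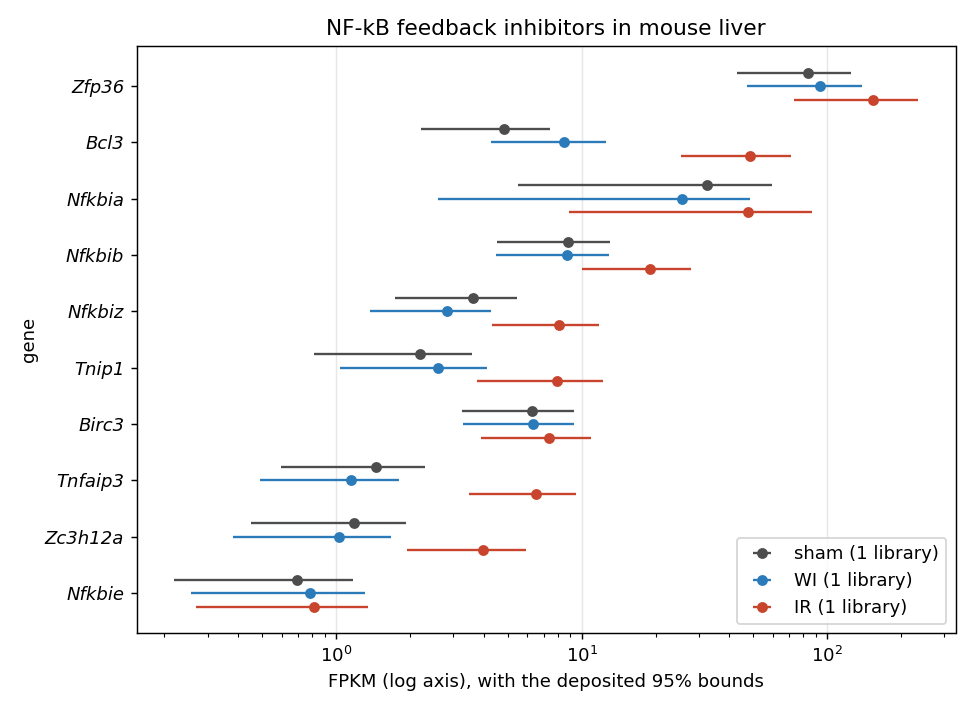
FPKM of the 10 inhibitors (log axis) in the sham, WI and IR libraries, 1 library each, with the deposited 95% bounds as bars. The IR bounds lie wholly above the WI bounds for Bcl3, Tnfaip3, Nfkbiz (by a narrow margin) and Zc3h12a. The bounds of all 3 libraries overlap for Birc3 and Nfkbie.

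The first comparison asks what ischemia without reperfusion did to these genes. None of the 9 inhibitors that passed the filter was past 2-fold between WI and sham, where 0.751% of all genes were at least 2-fold higher and 1.10% lower, 1.85% in all. None had bounds that separated, against 0.195% of all genes upward and 0.482% downward, 0.676% in all. The differences ran from -0.34 for Nfkbia to 0.70 for Bcl3, with 4 genes higher and 5 lower in WI. Their median was -0.01, and the median of all genes was 0.02. The largest of these differences, that of Bcl3, was exceeded by 1.91% of all genes and passed a threshold of 1.5-fold, the only inhibitor to do so.

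The second comparison, IR with WI, asks what reperfusion added. Of the 9 inhibitors that passed the filter, 6 were at least 2-fold higher in IR (Bcl3, Tnfaip3, Tnip1, Zc3h12a, Nfkbiz and Nfkbib) and 0 were lower, where 5.78% of all genes were at least 2-fold higher and 1.43% lower, 7.21% in all. Bounds separated upward for 4 of the 9, against 3.22% of all genes upward and 0.398% downward, 3.61% in all. The median difference of the 9 genes was 1.25 and that of all genes 0.03. When FPKM was rescaled to a common sum (TPM), which lowers the median of all genes to -0.45, 3 inhibitors were past 2-fold (Bcl3, Tnfaip3 and Zc3h12a), where 3.57% of all genes were higher and 11.0% lower, and the median of the 9 was 1.32 above that of all genes. The genes were picked with earlier results of these libraries known, so the counts describe these genes and are not independent support for a direction.

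**Figure D3:**
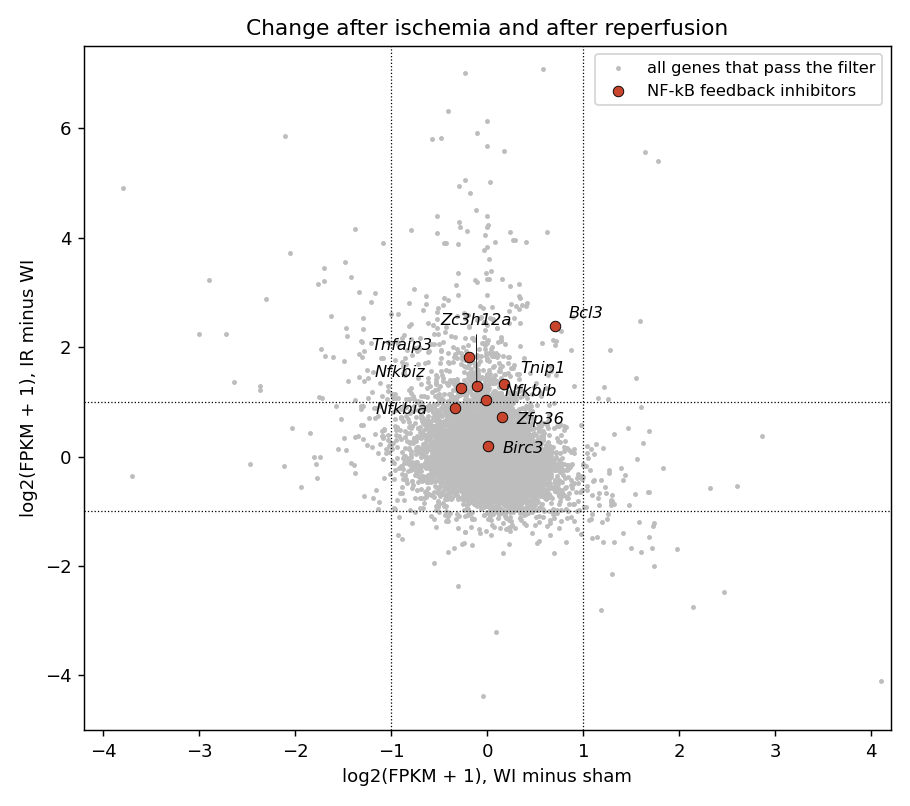
Difference in log2(FPKM + 1) between WI and sham (horizontal axis) and between IR and WI (vertical axis), 1 library per group, for 10792 genes (grey) and the 9 inhibitors that passed the filter (red). Dotted lines mark 2-fold, and the inhibitors lie near 0 on the horizontal axis, with 6 of 9 above the upper 2-fold line.

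Cell markers moved between the same libraries. All 6 neutrophil markers found in the tables were at least 2-fold higher in IR than in WI, beside 5.78% of all genes. However, Cxcr2 and Mmp8 passed the filter only through the IR library and so had to be higher there. The summed FPKM of the 6 was 25.4 in sham, 19.3 in WI and 469 in IR. S100a8 alone went from 9.17 to 212. The summed FPKM of 7 Kupffer cell markers went the other way, from 479 in sham to 242 in WI and 147 in IR, though Marco was higher in IR (25.3) than in WI (12.6). Endothelial markers summed to 52.8, 32.3 and 68.0, but without Lyve1 (11.2, 2.73 and 33.4) to 41.7, 29.6 and 34.6, which is lower in IR than in sham. The monocyte markers Ly6c2, Ccr2 and Cx3cr1 summed to 5.31, 3.64 and 8.45, and without Ly6c2 to 1.07, 1.18 and 0.958. Lymphocyte markers summed to 4.92, 4.08 and 1.74. None of the neutrophil or Kupffer cell markers was at 0 in any library. The part of these shifts in cell content in the values of the inhibitors was not tested, and in whole liver a change in the number of cells of a type and a change in RNA per cell cannot be told apart.

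Tnfaip3 encodes A20, an enzyme that edits ubiquitin chains on RIPK1, TRAF6 and other adaptors and so ends signaling from the TNF and Toll-like receptors. In mm10 it spans chromosome 10 from 19000910 to 19015410, with 2 start sites annotated in the tables. Its FPKM was 1.45 in sham (95% bounds 0.599 to 2.30), 1.15 in WI (0.490 to 1.80) and 6.51 in IR (3.49 to 9.53). The IR bounds lay above those of both other libraries, and sham and WI overlapped. The difference was -0.19 from sham to WI and 1.81 from WI to IR, a ratio of 5.68 in FPKM, and 2.08% of all genes had a larger one. Between IR and sham it was 1.62. Under the common sum the difference from WI to IR was 1.60. Its relative Otud7b (Cezanne), also a deubiquitinase, had an FPKM of 3.29, 3.26 and 3.35 in sham, WI and IR. The ratio of Tnfaip3 to Otud7b was 0.440 in sham, 0.352 in WI and 1.94 in IR, and the bounds of the pair overlapped in each library, so their order is not settled.

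Tnip1 encodes ABIN-1, a ubiquitin-binding protein that recruits A20 to its substrates. It lies on chromosome 11 from 54910787 to 54962940. Its FPKM was 2.19 in sham (0.811 to 3.57), 2.59 in WI (1.04 to 4.13) and 7.95 in IR (3.74 to 12.2). IR was the highest, with bounds above those of sham and still touching those of WI. The difference from WI to IR was 1.32, past 2-fold as deposited and 0.95 under the common sum. The related Tnip2 had an FPKM of 1.53 in both sham and WI and of 7.75 in IR, a difference of 1.79 with separate bounds, and Tnip3 had at most 0.229 in any library.

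Bcl3 encodes a nuclear IκB protein that binds homodimers of the p50 and p52 subunits and can repress or activate their targets. It lies on chromosome 7 from 19808462 to 19822755, 179023 bases from Relb. Bcl3 had the largest difference of the 10 genes. Its FPKM was 4.81 in sham (2.21 to 7.41), 8.45 in WI (4.29 to 12.6) and 48.4 in IR (25.5 to 71.2). Levels ascended over the 3 libraries, sham and WI overlapped, and IR stood apart from both. The FPKM ratio was 1.76 from sham to WI and 5.72 from WI to IR, and 10.0 between IR and sham. On the log2 scale the difference between IR and sham was 3.09, and 0.528% of all genes had a larger one. It was 2.63 under the common sum. On the FPKM + 1 scale Bcl3 alone passed 4-fold in the comparisons with IR, which rests on the added 1, since the FPKM ratios of Tnfaip3 were 5.68 and 4.50.

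Nfkbiz encodes IκBζ, another nuclear IκB protein, which is needed for the transcription of a set of secondary inflammatory genes. It lies on chromosome 16 from 55811377 to 55838641. Its FPKM was 3.60 in sham (1.74 to 5.47), 2.82 in WI (1.38 to 4.26) and 8.07 in IR (4.30 to 11.8). WI was the lowest of the 3, and IR separated from WI by a narrow margin and overlapped sham. IR exceeded WI by 1.25 on the log2 scale and exceeded sham by 0.98, the latter just short of 2-fold. Under the common sum it was 0.86 and 0.52. In the WI library Bcl3 had 2.99 times the FPKM of Nfkbiz, and 5.99 times in the IR library.

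The classical IκB proteins hold NF-κB dimers in the cytoplasm. Nfkbia (IκBα), the inhibitor that is resynthesized fastest after activation, is listed on chromosome 12 from 55280814 to 55492647. That interval of 211834 bases is far longer than the gene and also holds Ppp2r3c, Psma6, 1110008L16Rik and Mir1198, so the estimate depends on how reads of this stretch were shared out. Its FPKM was 32.5 in sham (5.52 to 59.6), 25.6 in WI (2.60 to 48.6) and 47.8 in IR (8.87 to 86.7). IR was the highest and WI the lowest, and all bounds overlapped. Half-widths of the bounds were 81.4% to 89.8% of FPKM, against a median of 51.9% to 52.0% over all genes. The difference from WI to IR was 0.88. Between IR and sham it was 0.54 as deposited and -0.03 under the common sum, so its direction depended on the scaling.

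Nfkbib (IκBβ) lies on chromosome 7 from 28756174 to 28766524, overlaps the listed interval of Gm6537, and is 376945 bases from Zfp36. Its FPKM was 8.77 in sham (4.52 to 13.0), 8.70 in WI (4.49 to 12.9) and 19.0 in IR (10.0 to 27.9). Sham and WI were nearly equal, and the IR bounds overlapped both. The FPKM ratio was 2.18 between IR and WI, a difference of 1.04 that was just past 2-fold as deposited, just short of it after scaling by the median ratio, and 0.55 under the common sum. Nfkbie (IκBε), on chromosome 17 from 45555716 to 45563168, stayed below an FPKM of 1. It was at 0.696 in sham (0.219 to 1.17), 0.781 in WI (0.256 to 1.31) and 0.810 in IR (0.268 to 1.35). All bounds of Nfkbie overlapped, and its difference from WI to IR was 0.02 as deposited and -0.28 under the common sum. Relative to Rela, an activating subunit that the classical IκB proteins bind, Nfkbia had 3.05 times the FPKM in sham, 2.41 in WI and 1.87 in IR. Nfkbib had 0.823, 0.820 and 0.742 times that of Rela. Bcl3, whose known partners are p50 and p52 and not Rela, had 0.451, 0.796 and 1.89 times, given here only as a scale shared with the others. Within these libraries, then, the ratio to Rela was lower in IR for Nfkbia and higher for Bcl3. These ratios do not depend on the scaling of a library, but no bounds were computed for them. The bounds of Nfkbia overlapped across all libraries, as did those of Rela, so the lower ratio of Nfkbia is not settled.

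Zc3h12a encodes Regnase-1, an endonuclease that cleaves stem-loops in cytokine mRNAs. It lies on chromosome 4 from 125118414 to 125127881. Its FPKM was 1.18 in sham (0.450 to 1.92), 1.03 in WI (0.379 to 1.68) and 3.95 in IR (1.94 to 5.96). The IR bounds lay above both others, above sham by a narrow margin. The difference from WI to IR was 1.29 and remained past 2-fold under the common sum, at 1.08. Of its relatives, Zc3h12c had an FPKM of 1.01, 1.15 and 1.19 in sham, WI and IR, and Zc3h12b and Zc3h12d were below 1 throughout.

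Zfp36 encodes tristetraprolin, which binds AU-rich elements and brings mRNAs such as that of Tnf to deadenylation. It lies on chromosome 7 from 28376784 to 28379228. Its FPKM was 83.9 in sham (43.0 to 125), 93.1 in WI (47.2 to 139) and 154 in IR (73.6 to 235). IR was the highest, but all bounds overlapped. The FPKM ratio was 1.66 from WI to IR and 1.84 from sham to IR. On the log2 scale these were differences of 0.72 and 0.87, short of 2-fold, and 0.18 and 0.29 under the common sum. Zfp36l1, a relative with the same kind of zinc fingers, had 47.0, 48.0 and 69.8, and Zfp36l2 had 30.5, 19.7 and 22.1. Zfp36 had 1.78, 1.94 and 2.21 times the FPKM of Zfp36l1, with bounds that overlapped in each library. Its bounds lay above those of Zfp36l2 in WI and IR.

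Birc3 encodes cIAP2, a ubiquitin ligase of the TNF receptor complex. It is an NF-κB target that promotes the classical pathway downstream of TNF and restrains the alternative pathway, so it is an inhibitor of a different kind from the rest. The gene lies on chromosome 9 from 7848701 to 7873170. Its FPKM was 6.28 in sham (3.27 to 9.30), 6.32 in WI (3.29 to 9.35) and 7.40 in IR (3.90 to 10.9). The 3 intervals were almost the same. The difference from WI to IR was 0.20 as deposited and -0.29 under the common sum, and 35.1% of all genes had a larger one as deposited. Its neighbour and paralog Birc2 (cIAP1), with which it could share reads, had an FPKM of 5.65, 4.93 and 7.08.

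**Figure D4:**
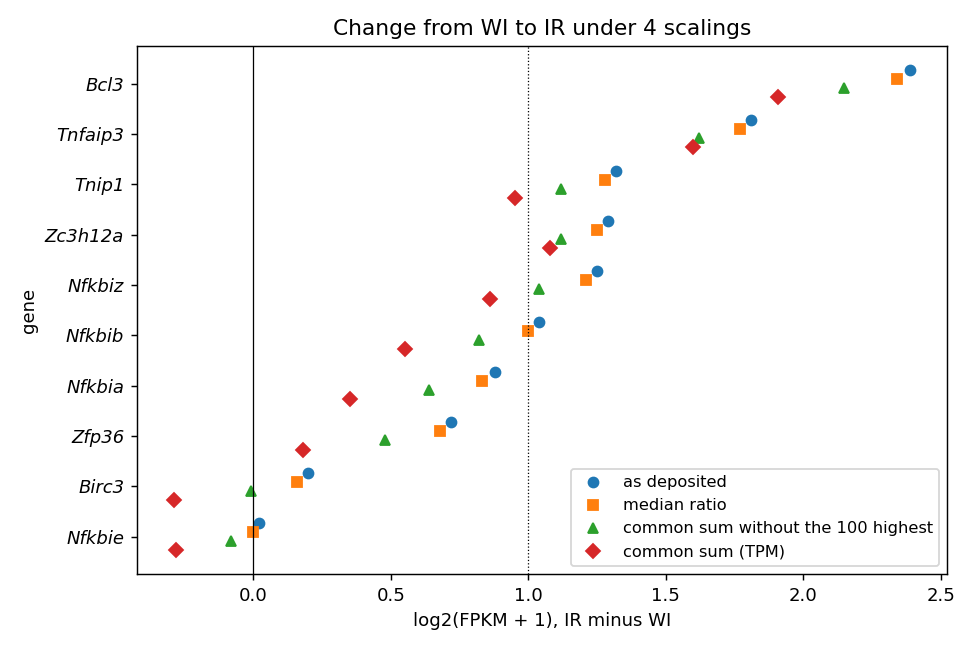
Difference in log2(FPKM + 1) between IR and WI for the 10 inhibitors under 4 scalings of FPKM, 1 library per group. Bcl3, Tnfaip3 and Zc3h12a lie past 2-fold (dotted line) under all 4, and Birc3 and Nfkbie fall below 0 under both common sums.

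IR was also set against sham directly. Of the 9 inhibitors, 5 were at least 2-fold higher in IR (Bcl3, Tnfaip3, Tnip1, Zc3h12a and Nfkbib) and 0 were lower, beside 5.35% of all genes higher and 2.15% lower, 7.50% in all. Bounds separated upward for Bcl3, Tnfaip3, Tnip1 and Zc3h12a, 4 of the 9, and for 2.70% of all genes upward and 1.12% downward, 3.82% in all. The median difference was 1.03, and that of all genes 0.05. Under the common sum 3 inhibitors were past 2-fold (Bcl3, Tnfaip3 and Tnip1), where 2.96% of all genes were higher and 14.4% lower. This comparison shares the IR library with the previous one and the sham library with the first, so the 3 sets of values are not independent.

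Among the genes whose pattern over the 3 libraries was most like that of Tnfaip3 were Jund, Apold1, Gja1 and Sphk1. Likeness was the distance between the pairs of differences (WI with sham, IR with WI) in log2(FPKM + 1), and it ran from 0.0459 for Jund to 0.0790 for Sphk1. Jund, an AP-1 subunit, had an FPKM of 38.5 in sham, 32.6 in WI and 118 in IR. Apold1 had 0.958, 0.652 and 4.67, the connexin gene Gja1 2.83, 2.26 and 10.0, and the sphingosine kinase gene Sphk1 0.405, 0.173 and 3.21. Among the other inhibitors the nearest to Tnfaip3 was Zc3h12a, at a distance of 0.525 and rank 175 of the background genes, followed by Nfkbiz at 0.566 and Tnip1 at 0.606. Birc3 was the furthest at 1.62.

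The rest of the pathway was followed in lists of genes. Of the 5 NF-κB subunits 2 were past 2-fold, Rela and Relb, both higher in IR than in WI, beside 5.78% of all genes higher. Under the common sum 0 of 5 were, with Rela at 0.70 and Relb at 0.86. Rela had an FPKM of 10.7 in sham, 10.6 in WI and 25.6 in IR, and Relb 1.17, 1.56 and 4.71. Nfkb2 went from 2.17 in WI to 5.20 in IR and Nfkb1 from 5.60 to 8.50, while Rel had 1.43, 0.983 and 1.84. Of these, only Relb had bounds that separated, and only between IR and sham (0.408 to 1.94 against 2.27 to 7.15). Among 28 upstream kinases and adaptors the median was 0.08, and 3 were past 2-fold, all higher in IR: Myd88 by 1.68, Map3k8 by 1.49 and Rnf31 by 1.06. That is a share of 10.7%, not far from the 5.78% of all genes that were higher. Myd88 (1.22) and Map3k8 (1.37) were higher under the common sum and Map3k7 lower (-1.21, and -0.68 as deposited). Under that scaling 3.57% of all genes were higher and 11.0% lower. None of this list was past 2-fold between WI and sham.

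Of 16 receptors and ligands that passed the filter, 5 were at least 2-fold higher in IR than in WI, beside 5.78% of all genes. These were Cd14 by 4.14, Il1r1 by 3.29, Il33 by 2.43, Il1b by 1.56 and Tnfrsf1a by 1.10. All but Tnfrsf1a, 4 genes, were past 2-fold under the common sum, where 3.57% of all genes were higher. Il1r1 was also lower in WI than in sham, with a difference of -1.42. Tnf itself was listed at 0 in sham and had an FPKM of 0.0851 in WI and 0.808 in IR, below the filter in every library. Among 24 other negative regulators and paralogs, of which 20 passed the filter, Socs1 (1.97) and Tnip2 (1.79) were past 2-fold, a share of 10.0% of the 20 beside 5.78% of all genes higher. Socs1 passed the filter only through the IR library. Under the common sum the same 2 genes were higher, and Cyld (-1.03), Itch (-1.17) and Xiap (-1.33) were lower. There 11.0% of all genes were lower and the median of all genes was -0.45. As deposited Cyld, Itch and Xiap differed by -0.52, -0.63 and -0.79, short of 2-fold. Both lists were chosen with earlier results known, and no test compared them.

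Target genes of NF-κB and the mRNAs that Zfp36 and Zc3h12a are known to remove were measured in the same libraries. Of the 30 target genes listed, 15 were at least 2-fold higher in IR than in WI and 0 were lower, with a median of 0.88 over all 30, and under the common sum 14 were higher. All 15 are among the 24 that passed the filter, where 5.78% of all genes were higher. However, 6 of the 15 (Cxcl2, Ccl3, Ccl4, Sele, Selp and Ptgs2) passed it only through the IR library and so had to be higher there. The 15 genes were the chemokine genes Cxcl2 (4.19), Ccl4 (3.96), Ccl3 (3.15), Ccl2 (2.29), Cxcl1 (1.95) and Cxcl10 (1.06), the adhesion molecules Selp (2.73), Sele (1.75) and Icam1 (1.63), and Gadd45b (3.55), Ier3 (2.66), Junb (2.12), Saa3 (2.10), Bcl2l1 (1.89) and Ptgs2 (1.35). Selp had bounds from 0 in every library. Between WI and sham 3 targets were higher (Lcn2 by 1.47, Cxcl1 by 1.27 and Cxcl10 by 1.26), beside 0.751% of all genes. Another 3 were lower (Vcam1 at -1.84, Gadd45b at -1.48 and Saa3 at -1.03), beside 1.10% of all genes. The list of 16 destabilised transcripts shares 8 genes with the target list. Of the 16, 9 were at least 2-fold higher in IR than in WI, also under the common sum, with a median of 1.45 over all 16. Of all genes that passed the filter, 5.78% were higher as deposited and 3.57% under the common sum. Among these 9, Cxcl2, Ccl3, Ptgs2 and Plaur passed the filter only through the IR library. Plaur (2.95) and Pim1 (2.38) were among the 9, and Il10 differed by 0.49, after a difference of -1.07 from sham to WI. Csf2 was listed at 0 in every library and Il2 in WI and IR.

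**Figure D5:**
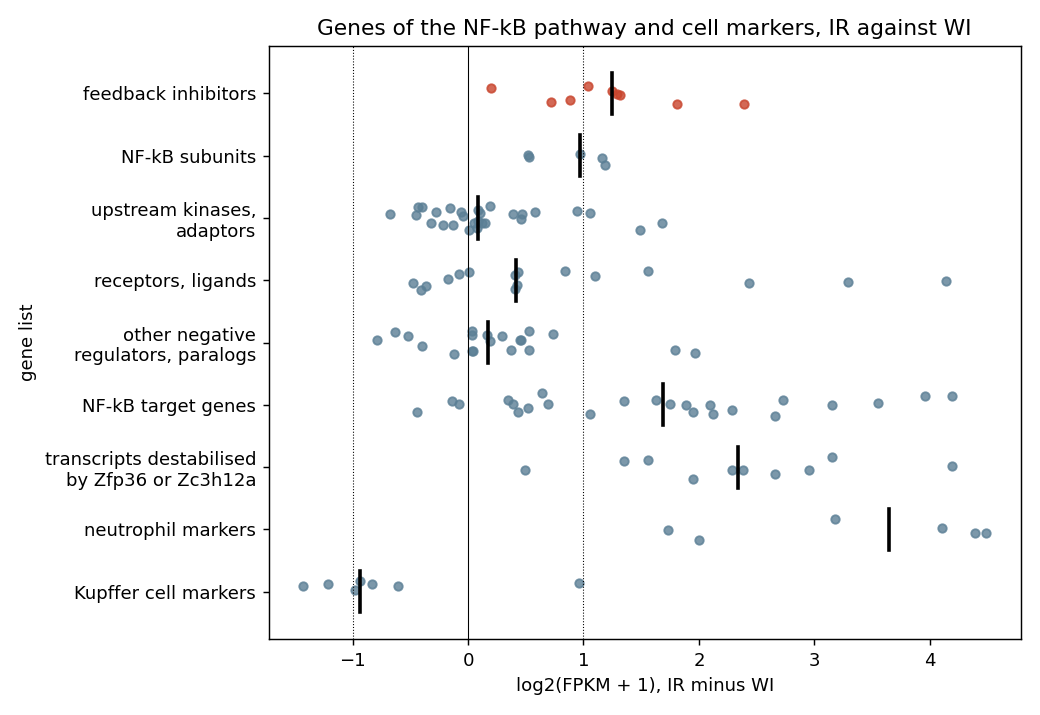
Difference in log2(FPKM + 1) between IR and WI, 1 library per group, for genes that passed the filter in each list (points), with the list's median as a black line and 2-fold as dotted lines. The median was 1.25 for the inhibitors, 0.08 for upstream kinases and adaptors, 3.65 for neutrophil markers and -0.94 for Kupffer cell markers. Among the genes shown, 6 target genes, 4 destabilised transcripts and 2 neutrophil markers passed the filter only through the IR library.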

How the data were processed

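Liver mRNA of the sham, WI and IR groups was sequenced, 1 library per group. The authors mapped the reads to mm10 with Tophat (TopHat2 2.0.9 in the submitters' processing notes) and computed FPKM per gene with Cuffdiff (Cufflinks 2.0.2), and the deposited tables hold FPKM, its 95% bounds and a status. The annotation is not given in the sources used here, and the files hold no counts, so depth per gene is unknown. The files count interval starts from 0, and 1 was added.

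Differences were computed as log2(FPKM + 1) over the 10792 of 23361 genes that reached an FPKM of 1 in any library. With 1 library a group no test was made and no p-value is given. The function that makes the calls was tested on simulated data. The genes and lists were chosen with earlier results of these data known. Named genes are the 10 inhibitors, list genes past 2-fold, NF-κB subunits, close paralogs and the 5 genes nearest to Tnfaip3, 1 of which is not reported here. Marker genes were named from fixed lists, and Tnf, Csf2, Il2, Map3k7, Cyld, Itch and Xiap after their values were seen. Ly6g was not used here. Otulin and Adgre1 were found under older symbols. Alternatives covered pseudocounts, filters, scalings and thresholds. The common sum without the 100 highest genes of each library, the counts of list genes under the common sum and without the filter, and the marker sums without 1 gene were added after seeing the data. Python 3.11.15, numpy 2.4.6, pandas 2.3.3 and matplotlib 3.10.9 were used.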

Additional observations from a re-analysis of the deposited data

How the results depend on the processing

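The number of inhibitors past 2-fold was 0 of 9 between WI and sham in all alternatives except a threshold of 1.5-fold, which gave 1 (Bcl3). Between IR and WI it was 6, and 3 under the common sum (TPM) and 1 at 4-fold. Between IR and sham it was 5, and 3 under the common sum, 3 under the common sum without the 100 highest genes and 1 at 4-fold. The other alternatives kept these counts within 1.5 times, and the counts of separate bounds, 0, 4 and 4, were the same with no filter and with an FPKM of at least 1 in every library. The common sum multiplies the IR library by 0.668 relative to sham, and the lower counts follow from that factor. All 150 differences of single genes under other pseudocounts and scalings moved by less than the half-width of their bounds, propagated from both libraries. Those half-widths are wide, so this says little about how stable the values are. The rule was met even by Nfkbia between IR and sham (0.54, and -0.03 under the common sum). It was also met by Birc3 between IR and WI (0.20 and -0.29).

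For all genes the 2-fold counts were 200, 778 and 809 in the order WI with sham, IR with WI and IR with sham. A pseudocount of 0.1 gave 382, 1239 and 1429, none 435, 1309 and 1480, a threshold of 1.5-fold 800, 2132 and 2572, and of 4-fold 24, 194 and 166. Asking also for separate bounds gave 67, 372 and 387. The common sum gave 1570 and 1873 in the comparisons with IR. Of the calls between IR and WI 80.2% were higher in IR as deposited, 24.5% under the common sum and 58.2% under the common sum without the 100 highest genes, and between IR and sham 71.3%, 17.0% and 41.7%. No paired analysis was possible because each group has 1 library, and leaving out a replicate was not possible for the same reason.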
